A study of Homo sapiens with 18 samples.

Results

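The 77 genes described here differed little in log2(TPM + 1) between anterior and posterior neural ectoderm at day 2. At day 4 they differed at least 2-fold (in TPM + 1) between the descendants, in the same direction in forebrain, midbrain and hindbrain medium. They came from the 29609 rows with a gene symbol outside the HOX clusters. Of these rows, 12436 reached a mean of 5 TPM, a length-scaled share of the library's transcripts, in at least 1 group, and 227 of those had an origin difference of at least 1 in log2(TPM + 1), in 1 direction, in all 3 media at day 4. Among the 227, the 77 were those whose group means at day 2 differed by less than 0.5 on that scale. Of the rest, 127 already differed by 0.5 or more in the same direction at day 2 and 23 in the opposite direction. Of the 77 genes, 44 were higher and 33 were lower in cells of posterior origin. The 4 origin differences (day 2 and the 3 media) chose the genes, so they are given as a description and were not tested for support.

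The data were poly-A RNA profiles of H1, an established wild-type line of human pluripotent stem cells, with 18 libraries in 9 groups of 2 biological replicates. Undifferentiated cells (hPSC) were taken at day 0. All differentiating cells spent day 1 in a definitive ectoderm medium with A8301 (1 µM), LDN193189 (100 nM), C59 (1 µM) and trametinib (250 nM), which block TGF-beta family receptors, BMP receptors, WNT secretion and MEK in turn. Anterior neural ectoderm (aNE) then had 24 hours of A8301, LDN193189 and C59, and posterior neural ectoderm (pNE) had A8301, LDN193189, the retinoic acid receptor agonist TTNPB (50 nM), FGF2 (20 ng/mL) and the tankyrase inhibitor XAV939 (1 µM). Both were replated in that step with the ROCK inhibitor Thiazovivin (1 µM). Each origin was collected at day 2 (aNE, pNE) or carried to day 4 in forebrain medium (aNE_T, pNE_T), midbrain medium (aNE_M, pNE_M) or hindbrain medium (aNE_H, pNE_H). Cells for day 2 were plated at 37500 per cm2 in both origins, and cells for day 4 at 75000 per cm2 for aNE and 150000 per cm2 for pNE. At day 4, origin therefore cannot be told apart from plating density, and day 4 also differs from day 2 in density within each origin. What the midbrain and hindbrain media contained was not used here.

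In the embryo, the neural plate is patterned along the head-to-tail axis by signals that include retinoic acid, FGF and WNT. Posterior fates need these signals and anterior fates need protection from them. Cells exposed to such a signal first change its direct targets, and transcription factors made in that step can then change further genes. A gene that differs between origins only some days after the exposure is therefore separated in time from the genes that differ at once.

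Values in TPM were analysed as log2(TPM + 1), which understates the change of genes with low values. Differences were fitted with limma over the 17033 genes that reached 1 TPM in 2 or more libraries, and all 77 genes were among them. A gene was called changed at a Benjamini-Hochberg adjusted p under 0.05 and an absolute log2 difference of at least 1. Replicates of a group correlated at 0.982 to 0.987, and every one of the 18 libraries was closest to its own replicate. The summed TPM of 16 pluripotency markers was 7478 to 7549 in hPSC and 994 to 1623 at day 4. The sum of 16 neural progenitor markers was 637 to 657 in hPSC, 2136 to 2191 in aNE_T, 1429 to 1446 in pNE_T and 659 to 977 in the other 4 day-4 groups. The progenitor marker HES5 was listed at 0 in pNE, aNE_H and pNE_H. TPM keeps no read depth, so counting errors are unknown. The tissue labels were checked on these sums only, and in bulk RNA more cells of a type and more RNA per cell cannot be told apart.

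At day 4 the 2 origins' libraries did not overlap in any medium for any of the 77 genes, which the rule largely fixes. The share of all genes without overlap was not computed, so nothing is read from this. Of the 77 genes, the origin difference was called for 77 in forebrain, 76 in midbrain and 77 in hindbrain medium. The shares of all tested genes were 7.77%, 5.74% and 6.83%. The rule used these differences, so nothing is read from the counts. The exception was HECW1, a HECT-type ubiquitin ligase, at -1.06 ± 0.34 (SE) in midbrain medium with a limma adjusted p of 0.0527. At day 2 none of the 77 was called (3.85% of all genes were), which the rule also fixes. Of the 77, 4 had a day-2 adjusted p under 0.05 at a smaller size, beside 13.6% of all genes at any size. The rule limits this count too. GYG1, which starts glycogen chains, stood at 0.36 ± 0.10 (adjusted p = 0.0303), and ZFP42, a pluripotency factor also known as REX1, at -0.36 ± 0.10 (adjusted p = 0.0246), both in their day-4 direction. GSN, an actin-severing protein, stood at 0.44 ± 0.11 (adjusted p = 0.0159), and IFITM1, an interferon-induced membrane protein, at 0.49 ± 0.13 (adjusted p = 0.0250), both opposite to their day-4 direction. The SE of the day-2 difference ranged from 0.073 to 0.452 over the 77 genes, so a small day-2 difference is not shown to be none.

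**Figure D1:**
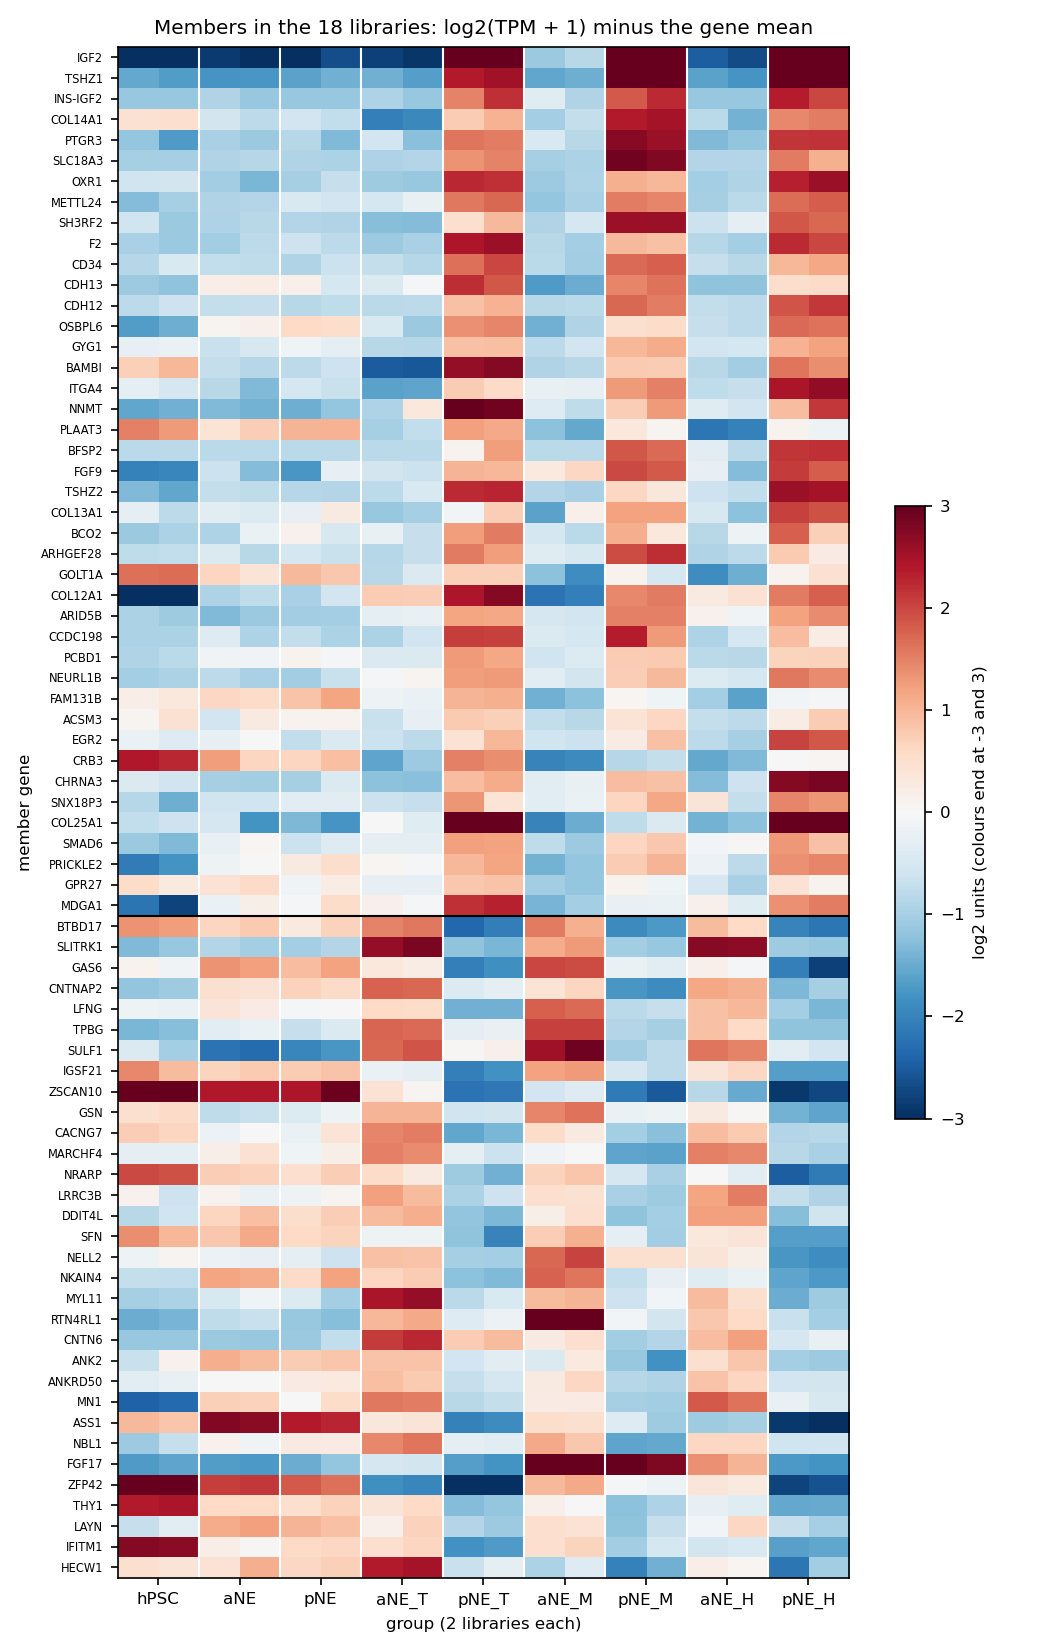
Each row is 1 of 74 of the 77 genes and each column 1 of the 18 libraries, grouped by the labels under the axis, and colour gives log2(TPM + 1) minus the gene's mean over the libraries (red higher, blue lower, ending at -3 and 3). Above the black line are 42 genes higher in pNE-derived cells and below it 32 lower ones, and the 2 day-2 groups look alike in most rows while the day-4 pairs differ.

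The values at the edges of the rule were as follows. Just inside the day-2 limit were IFITM1 (0.494), ITGA4 (0.490) and RTN4RL1 (-0.490), and just outside were STARD8 (0.506), EVA1A (0.507) and SLIT1 (0.510), all as log2 differences at day 2. For the smallest difference over the 3 media at day 4, MDGA1 (1.003) and GPR27 (1.009) were just inside, and CD200 (-0.999), SLC8A3 (0.996) and MAP2 (-0.995) just outside. For the highest group mean, BCO2 (5.02 TPM) and LRRC3B (6.09 TPM) were just inside, and AKAP6 (4.85 TPM), RPS27P25 (4.78 TPM) and VEGFC (4.72 TPM) just outside.

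The pattern was looked for in each replicate alone and read in the other one, which the choice had not used. By replicate 1 alone the rule found 82 genes, 57 of them among the 77. In replicate 2, 80 of the 82 kept the sign of the day-4 difference in all 3 media, 61 had differences of at least 1 in all 3, 58 had a day-2 difference under 0.5, and 40 showed the whole pattern. By replicate 2 alone it found 84 genes, 55 of them among the 77, and in replicate 1 the counts were 81, 55, 61 and 40. The replicates therefore shared the direction for nearly all of these genes and the whole pattern, with its limits, for fewer.

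The rule requires that at least 1 origin moved after day 2, but not which. Over both directions, a change from aNE was called for 28, 28 and 24 of the 77 genes in forebrain, midbrain and hindbrain medium (9.03%, 12% and 10.1% of all genes), and a change from pNE for 53, 56 and 57 (10.2%, 12.7% and 12.3%). Among the 44 higher genes, a rise from pNE was called for 33 in forebrain medium, 31 in midbrain medium and 35 in hindbrain medium, beside 4.68%, 4.87% and 4.47% of all genes rising in those comparisons. A fall from aNE was called for 6, 11 and 7 of them, beside 4.42%, 7.63% and 6.83% of all genes. Since the rule selects for a widening gap, these shares are not read against the background. In 28 of the 44 the pNE-derived rise was called in all 3 media, and in 22 of these no change of the aNE-derived cells was called in any medium. The aNE-derived cells fell in every medium for 4 genes. Of the 44, 16 had a mean under 1 TPM in both aNE and pNE, where only a rise can make a gap. At such levels adding 1 TPM keeps day-2 differences small, so the day-2 limit tells little about these genes. Among the 26 with at least 1 TPM in both day-2 groups, pNE-derived rises were called for 16, 15 and 17 in forebrain, midbrain and hindbrain medium, and aNE-derived falls for 6, 11 and 7.

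Among the 33 lower genes, a fall from pNE was called for 18 in forebrain, 21 in midbrain and 19 in hindbrain medium, beside 5.56%, 7.85% and 7.80% of all genes. A rise from aNE was called for 16, 10 and 10, beside 4.61%, 4.34% and 3.24% of all genes. The pNE-derived fall was called in all 3 media for 15 genes and the aNE-derived rise in all 3 for 6. Among the 33, 7 changed only in the pNE-derived cells in every medium, 3 only in the aNE-derived cells in every medium, and 3 fell in both origins in every medium, further from pNE. Of the 33, 5 were under 1 TPM on average in both aNE and pNE, where the day-2 limit again tells little. Among the 28 with at least 1 TPM in both day-2 groups, pNE-derived falls were called for 18, 21 and 19, and aNE-derived rises for 11, 6 and 5. No test compared the higher with the lower genes.

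**Figure D2:**
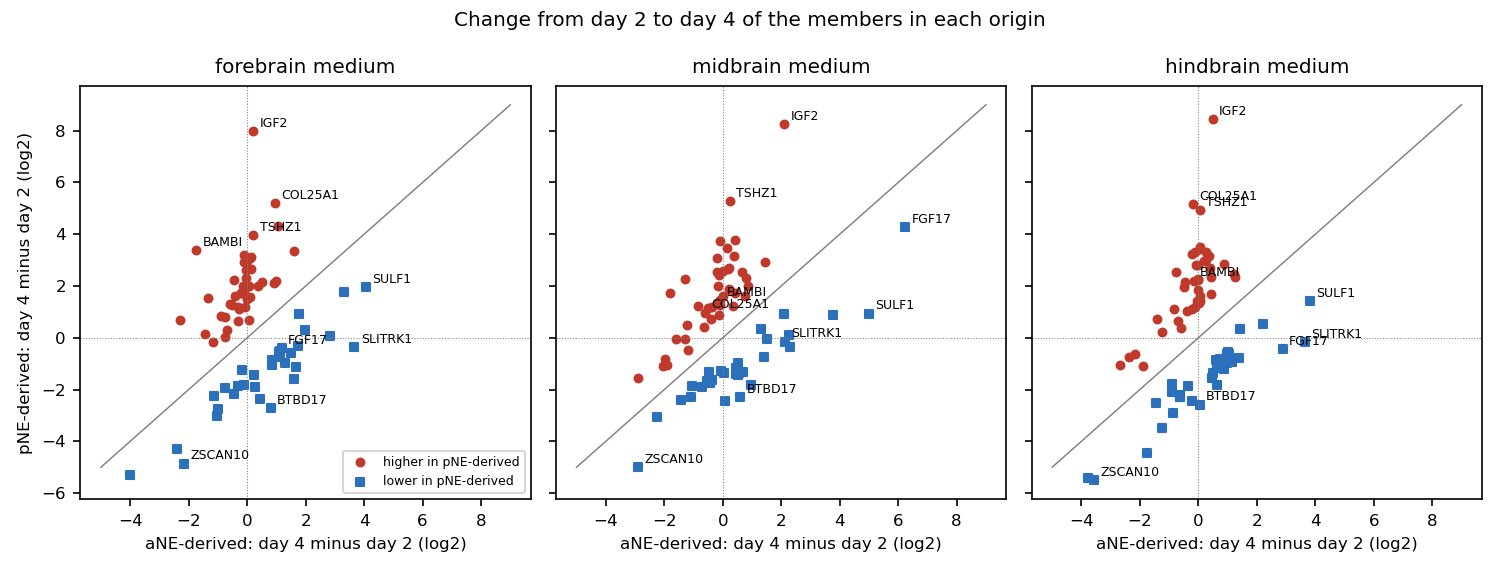
Each point is 1 of 74 of the 77 genes, with its log2 change from aNE to the aNE-derived cells on the x axis and from pNE to the pNE-derived cells on the y axis, in 1 panel per medium (red circles higher, blue squares lower in pNE-derived cells). The rule fixes the distance from the diagonal, and a reader should see that most red points lie near 0 on the x axis and up to 8.44 on the y axis, and blue points spread both to the right and downwards.

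IGF2, the insulin-like growth factor that drives fetal growth and is expressed from the paternal allele in many tissues, had the largest origin difference. It was at 0.889 and 1.03 TPM in hPSC, 1.77 and 2.63 in aNE, and 2.18 and 3.21 in pNE. In pNE-derived cells it stood at 900 and 973 TPM in forebrain medium, 1064 and 1156 in midbrain medium, and 1175 and 1381 in hindbrain medium. In aNE-derived cells it stood at 2.55 and 2.80, 11.4 and 14, and 3.12 and 3.8 TPM in the same order. All 6 pNE-derived libraries were thus at 900 TPM or more and no other library was above 14. The rise from pNE was 8 ± 0.16, 8.24 ± 0.16 and 8.44 ± 0.16 (limma, largest adjusted p = 6.93e-12). The aNE-derived cells rose by 2.10 ± 0.16 in midbrain medium (adjusted p = 3.81e-07), and their change was 0.21 in forebrain and 0.49 in hindbrain medium (adjusted p = 0.362 and 0.0345), under the size required for a call. The origin difference was accordingly smaller in midbrain medium, by -1.65 ± 0.23 against forebrain medium (adjusted p = 0.000254). INS-IGF2, a read-through transcript that overlaps IGF2 on chromosome 11, followed it at 5.19 to 10.2 TPM in the pNE-derived libraries and 0 to 0.715 TPM in the aNE-derived ones, and its reads cannot be told apart with certainty from those of IGF2. For IGF1R, through which IGF2 signals, the origin differences were -0.46, 0.11 and -0.22 in forebrain, midbrain and hindbrain medium, and the first had an adjusted p of 0.0182 at a size too small for a call. For IGF2R, which clears IGF2, they were -0.26, -0.30 and 0.23 (smallest adjusted p = 0.109). On the list of imprinted and IGF genes (41 tested), 4, 3 and 5 were called higher and 7, 1 and 3 lower in pNE-derived cells in those media, beside 3.79%, 3.19% and 3.92% of all genes called higher and 3.97%, 2.55% and 2.91% called lower.

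The higher genes held 3 transcription factors of the hindbrain and trunk list. TSHZ1 and TSHZ2 are zinc finger homeobox factors related to the fly trunk gene teashirt, and EGR2 (KROX20) marks alternate segments of the hindbrain. TSHZ1 was at 0.0118 to 0.286 TPM in hPSC, aNE, pNE and all 6 aNE-derived libraries. Within that range it was at 0.0221 and 0.0313 TPM in aNE and 0.132 and 0.284 TPM in pNE. This day-2 gap had the day-4 direction, and adding 1 TPM compresses it. TSHZ1 was at 17.1 and 19 TPM in pNE_T, 46.2 and 46.4 in pNE_M, and 34.9 and 37.0 in pNE_H. Its rise from pNE was 3.98 ± 0.15, 5.29 ± 0.15 and 4.94 ± 0.15 (largest adjusted p = 9.50e-10), and no change was called in aNE-derived cells. TSHZ2 was at 0.689 to 0.893 TPM at day 2 and reached 13.7 and 14.2 in pNE_T, 2.93 and 3.82 in pNE_M and 16.7 and 17.8 in pNE_H, against 0.575 to 1.26 in the aNE-derived libraries. Among the pNE-derived groups TSHZ2 was lowest in pNE_M, where TSHZ1 was highest. The third family member, TSHZ3, was called higher in pNE-derived cells in forebrain medium (1.41) and hindbrain medium (2.24), and in midbrain medium the difference was 0.88 ± 0.29 (adjusted p = 0.0567), so the rule left it out. EGR2 was at 6.54 and 7.47 TPM in pNE_H, 1.45 to 3.14 TPM in pNE_T and pNE_M, and 0.032 to 0.369 TPM in the aNE-derived libraries. Its rise from pNE was called in all 3 media and was 2.53 ± 0.25 in hindbrain medium (adjusted p = 4.00e-06), while the call in midbrain medium (1.14) was lost without pNE replicate 1 (0.99) or without pNE_M replicate 2 (0.82). Of the 26 tested genes on this list, 13, 11 and 14 were called higher in pNE-derived cells in forebrain, midbrain and hindbrain medium. The shares of all genes were 3.79%, 3.19% and 3.92%. On the lower side 1, 2 and 3 were called, beside 3.97%, 2.55% and 2.91%. The higher counts include TSHZ1, TSHZ2 and EGR2, which the rule chose for that direction. Already at day 2, 6 genes of the list were called higher and 1 lower in pNE, beside 2.37% and 1.48% of all genes.

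The 250 bases before the RefSeq start of TSHZ2 (GRCh38.p14, chr20:52972108-52972357, plus strand) are shown because TSHZ2 is 1 of the TSHZ genes that rose together from pNE. Promoters were searched on both strands for 8 motifs, none of which contains another. AGGTCA is the usual site of nuclear receptors, TGATNNAT that of HOX proteins with PBX, and TAATCC that of OTX factors. TEAD factors are known to bind GGAATG, and the TCF and LEF factors of WNT signalling bind CTTTGA. The NFY complex binds CCAAT, the general machinery at a TATA box reads TATAAA, and E-box factors such as MYC bind CACGTG. Capitals in the sequences printed here mark matches. The TSHZ2 stretch holds no match and 24 CpG.
TSHZ2: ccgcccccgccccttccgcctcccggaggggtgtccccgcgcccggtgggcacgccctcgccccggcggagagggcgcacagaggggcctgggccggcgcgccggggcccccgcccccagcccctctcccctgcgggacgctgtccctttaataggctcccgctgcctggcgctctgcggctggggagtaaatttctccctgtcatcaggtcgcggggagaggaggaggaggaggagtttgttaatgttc

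Beside TSHZ1 on chromosome 18 lies another of the 77 genes. PTGR3, a zinc-binding reductase named ZADH2 in GENCODE 29, spans 75195108 to 75209348 on the minus strand, and TSHZ1 spans 75210755 to 75289950 on the plus strand, so their starts face away from each other 1407 bases apart (coordinates of GENCODE 29, GRCh38). PTGR3 was at 2.44 to 3.79 TPM at day 2 and 2.46 to 5.35 TPM in the aNE-derived libraries. In pNE-derived cells it was at 24.1 and 25.3 TPM in forebrain, 51.5 and 56.8 in midbrain and 37.2 and 37.9 in hindbrain medium. Both genes of the pair were thus lowest in pNE_T and highest in pNE_M among the pNE-derived groups. PTGR3 rose from pNE by 2.66 ± 0.24, 3.76 ± 0.24 and 3.25 ± 0.24 (largest adjusted p = 2.32e-06). Apart from this pair and the overlapping IGF2 and INS-IGF2, 3 further pairs of the 77 genes lay within 1 Mb of each other: LAYN and BCO2 on chromosome 11, and ARID5B with EGR2 and COL13A1 with PCBD1, both on chromosome 10. The 77 genes were spread over 21 chromosomes, and 76 are protein coding. The remaining one, SNX18P3, is a pseudogene whose reads can be shared with its parent gene.

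Of the 133 genes on the matrix and integrin list 5 were among the 77 (of 17033 tested genes), and these were higher in pNE-derived cells. They were 4 collagens that do not form the main fibrils (COL12A1 and COL14A1, which bind along fibrils, and the transmembrane collagens COL13A1 and COL25A1) and ITGA4, an integrin subunit of a receptor for fibronectin and VCAM1. COL12A1 rose in both origins in forebrain and hindbrain medium. It went from 6.05 to 8.55 TPM at day 2 to 74.2 and 93.2 in pNE_T, 36.7 and 40.0 in pNE_M and 40.0 and 47.6 in pNE_H, and to 22.3 and 22.7 in aNE_T and 15.8 and 18.2 in aNE_H, but fell to 2.00 and 2.39 in aNE_M. The change from aNE was 1.60 ± 0.16, -1.28 ± 0.16 and 1.21 ± 0.16 in the 3 media (largest adjusted p = 7.49e-05). COL14A1 was at 6.22 to 7.48 TPM at day 2, 20.0 and 24.4 in pNE_T, 63.0 and 68.6 in pNE_M and 32.4 and 34.8 in pNE_H. In aNE-derived cells it fell in forebrain medium, to 1.97 and 2.23 TPM (-1.34 ± 0.18, adjusted p = 0.000102). COL25A1 stood at 57.4 to 61.8 TPM in pNE_T and pNE_H, and at 1.90 and 2.65 TPM in pNE_M. Its origin difference was therefore large in forebrain (3.82) and hindbrain medium (4.92) and close to the rule's limit in midbrain medium (1.15). ITGA4 was at 6.24 and 7.35 TPM in pNE_T, 10.9 and 12.9 in pNE_M and 25.6 and 29.9 in pNE_H, against 0.594 to 3.22 TPM in the aNE-derived libraries. COL13A1 was at 21.3 and 23.6 TPM in pNE_H and its replicates differed widely elsewhere (0.977 and 5.66 TPM in aNE_M), and only the rise to pNE_H was called (1.95 ± 0.45, adjusted p = 0.00426).

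Of the 118 tested genes on the matrix and integrin list, 21, 14 and 20 were called higher and 17, 8 and 10 lower in pNE-derived cells in forebrain, midbrain and hindbrain medium, with a median of -0.18, -0.05 and 0.02 (the median of all genes was -0.05, -0.04 and -0.04). Of 19 mesoderm and mesenchyme markers tested, 4, 8 and 7 were called higher and 1 in each medium lower. Their summed TPM was 2998 to 3087 in pNE_T and 3641 to 3844 in aNE_T, 887 to 934 in pNE_M and 380 to 403 in aNE_M, and 1209 to 1284 in pNE_H and 1185 to 1265 in aNE_H. MEOX2, HAND1 and PRRX1 were listed at 0 in pNE_T and FOXF1 and HAND1 in aNE_T, HAND2 in pNE_M and LUM and TBX5 in aNE_M, and TBXT and MSGN1 in pNE_H and TBXT, HAND1 and HAND2 in aNE_H. Of 19 neural crest markers tested, 1, 7 and 3 were called higher and 4, 4 and 7 lower in pNE-derived cells. The summed TPM of all 20 was 149 to 152 in pNE_T and 231 in both aNE_T libraries, 933 to 945 in pNE_M and 532 to 546 in aNE_M, and 300 to 304 in pNE_H and 418 to 447 in aNE_H. Of 20 surface ectoderm and placode markers tested, 2, 3 and 2 were called higher and 4, 5 and 5 lower. The summed TPM of all 24 was 1492 to 1629 in pNE_T and 810 to 828 in aNE_T, 2295 to 2357 in pNE_M and 1149 to 1229 in aNE_M, and 1634 to 1855 in pNE_H and 1482 to 1602 in aNE_H. The part of these markers in the matrix and integrin differences was not tested. The 250 bases before the RefSeq start of COL12A1 (GRCh38.p14, chr6:75206054-75206303, minus strand, written 5′ to 3′ along the gene) are shown because its origin difference differed most between hindbrain and midbrain medium after COL25A1 and CHRNA3. Capitals mark a match to GGAATG and one to TGATNNAT on the opposite strand, and the stretch holds 21 CpG.
COL12A1: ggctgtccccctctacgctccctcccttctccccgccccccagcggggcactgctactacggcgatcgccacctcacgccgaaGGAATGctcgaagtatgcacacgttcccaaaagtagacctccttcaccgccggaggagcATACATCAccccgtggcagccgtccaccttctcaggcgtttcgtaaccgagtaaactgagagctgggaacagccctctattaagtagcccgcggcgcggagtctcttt

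Signalling genes among the higher members included inhibitors of the BMP pathway, in which ligands act through receptor kinases and SMAD proteins. BAMBI is a decoy receptor without a kinase, and SMAD6 is an inhibitory SMAD. Both are known BMP targets. BAMBI was at 5.14 to 6.26 TPM at day 2, 68.7 and 73.7 in pNE_T, 17.8 and 18.2 in pNE_M and 28.5 and 33.1 in pNE_H. In aNE-derived cells it fell to 0.922 and 0.971 TPM in forebrain medium (-1.74 ± 0.13, adjusted p = 5.39e-07) and was at 4.38 to 5.28 TPM in the other media. SMAD6 was at 3.81 to 6.84 TPM at day 2, 10.7 to 17.5 TPM in the pNE-derived libraries and 2.54 to 6.70 TPM in the aNE-derived ones, with a rise from pNE called in each medium (1.74, 1.24 and 1.60). NBL1, a secreted BMP antagonist, went the other way. It was at 8.28 and 8.60 TPM in pNE_T against 31.0 and 34.7 in aNE_T, 2.92 and 3.08 in pNE_M against 19.5 and 25 in aNE_M, and 6.74 and 6.77 in pNE_H against 17.1 in both aNE_H libraries. On the list of BMP, TGF-beta and NODAL genes (52 tested), 4, 7 and 8 were called higher by posterior origin and 10, 5 and 8 lower, in forebrain, midbrain and hindbrain medium. ID1, a direct BMP target on that list, was called higher in all 3 media (1.33, 1.66 and 2.91), and lower in pNE at day 2 (-2.83), so the rule left it out.

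FGF ligands were found in both directions. FGF9 was at 7.24 and 7.43 TPM in pNE_T, 14 and 15.5 in pNE_M and 13.7 and 16.7 in pNE_H, and at 0.682 to 5.35 TPM in the aNE-derived libraries. Its rises from pNE were called in all 3 media (1.99, 2.91 and 2.95, each ± 0.42), and none was called when only the compared libraries were fitted. FGF17, a ligand of the midbrain-hindbrain boundary, was at 74.3 and 86.1 TPM in aNE_M and 23.2 and 28.7 in pNE_M. It was at 6.02 and 7.99 TPM in aNE_H against 0 and 0.058 in pNE_H, and at 1.39 and 1.46 TPM in aNE_T against 0 and 0.111 in pNE_T. Both origins thus rose in midbrain medium, by 6.24 ± 0.18 from aNE and 4.28 ± 0.18 from pNE (adjusted p = 3.77e-11 and 1.27e-09), and only aNE-derived rises were called in the other media. Both FGF17 and FGF9 were under 3 TPM in every day-2 library. At day 2 FGF17 was at 0.0513 and 0.0955 TPM in aNE and 0.236 and 0.548 TPM in pNE, opposite to its day-4 direction. FGF9 was at 0.692 and 1.64 TPM in aNE and 0.245 and 2.51 TPM in pNE. SULF1, an extracellular sulfatase that edits heparan sulfate and so changes how FGF, WNT and Hedgehog ligands bind, rose from aNE in all 3 media and from pNE in forebrain (1.95) and hindbrain medium (1.41), with 0.94 in midbrain medium, under the size for a call. It was at 2.14 to 3.62 TPM at day 2, 49.8 and 56.3 in aNE_T against 14.9 and 16.3 in pNE_T, 88.9 and 116 in aNE_M against 6.47 and 8.04 in pNE_M, and 42.3 and 46.0 in aNE_H against 9.42 and 11.5 in pNE_H. PRICKLE2, a planar cell polarity protein on the WNT list, was at 24.3 to 40.1 TPM in the pNE-derived libraries, 12.4 to 20.5 TPM at day 2 and 4.53 to 14.4 TPM in the aNE-derived ones. BCO2, a carotenoid-cleaving enzyme on the retinoid list, was at 1.82 to 6.89 TPM in the pNE-derived libraries and 0.27 to 1.04 TPM in the aNE-derived ones, and its called rises in forebrain (1.58) and hindbrain medium (1.43) were lost without pNE replicate 2 (1.28 and 1.14), without pNE_T replicate 2 (1.42 in forebrain medium) or without pNE_H replicate 1 (0.89 in hindbrain medium). Of 26 retinoid genes tested, 12, 10 and 9 were called higher in pNE-derived cells in the 3 media and 0, 1 and 0 lower, and 7 were already called higher at day 2, where 2.37% of all genes were.

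Of the 28 genes on the Notch list 3 were among the 77 (of 17033 tested genes), and these were lower in pNE-derived cells. In that pathway a ligand on 1 cell cuts a receptor on its neighbour, and the freed receptor fragment switches on targets that keep neural progenitors from differentiating. LFNG is a glycosyltransferase that changes which ligands a Notch receptor answers to, and NRARP is a Notch target that dampens the signal. BTBD17, a protein with a BTB domain, was placed on the list with results of these data known. NEURL1B, a ubiquitin ligase of the Neuralized family that acts on Notch ligands, was not on the list and was higher in pNE-derived cells (1.24, 1.32 and 1.97 in forebrain, midbrain and hindbrain medium). BTBD17 was at 17.2 to 24.9 TPM at day 2 and 21.5 to 43.5 TPM in the aNE-derived libraries. It fell from pNE to 1.92 and 2.54 TPM in pNE_T, 2.99 and 3.56 in pNE_M and 2.32 and 2.72 in pNE_H, by -2.71, -2.30 and -2.58 (each ± 0.19, largest adjusted p = 6.88e-07). LFNG was at 28.3 to 38.8 TPM at day 2, 10.2 and 10.3 in pNE_T against 43.4 and 44.7 in aNE_T, 16.4 and 17.8 in pNE_M against 97.5 and 104 in aNE_M, and 10.7 and 14.1 in pNE_H against 55.4 and 60 in aNE_H. The 2 origins moved apart, with a rise from aNE called in midbrain medium (1.42 ± 0.11, adjusted p = 3.59e-07) and a fall from pNE called in forebrain medium (-1.42 ± 0.11, adjusted p = 4.91e-07) and hindbrain medium (-1.18 ± 0.11, lost without pNE_H replicate 2 at -0.998). NRARP was at 11.6 to 14 TPM at day 2 and fell from pNE to 2.32 and 3.28, 3.53 and 5.28, and 0.616 and 1.05 TPM in the 3 media, while aNE-derived libraries held 6.23 to 15 TPM. Of 27 Notch genes tested, 9, 4 and 6 were called lower in pNE-derived cells, beside 3.97%, 2.55% and 2.91% of all genes. On the higher side 2, 1 and 0 were called, beside 3.79%, 3.19% and 3.92%. At day 2, 4 were called lower and 1 higher (1.48% and 2.37% of all genes). The lower counts at day 4 include BTBD17, LFNG and NRARP in each medium. The rule chose these genes for being lower, so the counts are a description. NOTCH1 was called lower in forebrain (-1.5) and hindbrain medium (-1.20) and its difference in midbrain medium was -0.47. In midbrain medium the called genes were BTBD17, LFNG, NRARP and HEY1 on the lower side and HES3 on the higher.

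The 250 bases before the RefSeq starts of LFNG (GRCh38.p14, chr7:2512279-2512528, plus strand) and NRARP (GRCh38.p14, chr9:137302272-137302521, minus strand, written along the gene) are shown because both genes were lower in pNE-derived cells in every medium. Capitals mark CCAAT in each and TATAAA in NRARP. The LFNG stretch holds 8 CpG and the NRARP stretch 39.
LFNG: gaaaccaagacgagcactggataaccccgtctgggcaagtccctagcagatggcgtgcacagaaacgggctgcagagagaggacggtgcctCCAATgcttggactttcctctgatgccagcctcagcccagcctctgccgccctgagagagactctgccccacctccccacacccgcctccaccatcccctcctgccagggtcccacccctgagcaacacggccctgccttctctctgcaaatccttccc
NRARP: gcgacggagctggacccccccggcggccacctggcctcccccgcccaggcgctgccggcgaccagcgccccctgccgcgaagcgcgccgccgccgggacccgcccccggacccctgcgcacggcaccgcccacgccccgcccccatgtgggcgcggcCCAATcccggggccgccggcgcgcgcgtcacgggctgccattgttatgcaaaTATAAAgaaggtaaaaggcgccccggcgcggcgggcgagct

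Of the 117 genes on the cell adhesion list 7 were among the 77 (of 17033 tested genes), in both directions. The cadherins CDH12 and CDH13, calcium-dependent adhesion proteins, were higher in pNE-derived cells, and 5 genes of the immunoglobulin, neurexin-like and leucine-rich repeat classes were lower. MDGA1, a GPI-anchored immunoglobulin protein, was not on the list and was higher in pNE-derived cells (2.20, 1.00 and 1.57). CDH12 was at 0 to 0.0973 TPM at day 2 and in the aNE-derived libraries, and at 2.28 and 2.66, 4.13 and 4.90, and 5.61 and 6.74 TPM in pNE_T, pNE_M and pNE_H. CDH13 was at 1.73 to 3.56 TPM at day 2, and the 2 origins moved apart in midbrain medium, to 9.81 and 11.1 TPM in pNE_M and 0.212 and 0.391 in aNE_M. SLITRK1, a synaptic adhesion protein with leucine-rich repeats, was at 0.0188 to 0.444 TPM in every day-2, pNE-derived and hPSC library. It was at 15.4 and 17.6 TPM in aNE_T, 4.71 and 5.38 in aNE_M and 15.9 and 16.6 in aNE_H, a rise of 3.67, 2.14 and 3.65 (each ± 0.16, largest adjusted p = 2.91e-07) with no change called from pNE. CNTNAP2, a neurexin-like protein of axons, was at 102 to 121 TPM at day 2, 248 and 257 in aNE_T against 56.0 and 61.8 in pNE_T, 99.7 and 118 in aNE_M against 19.5 and 21.5 in pNE_M, and 158 and 168 in aNE_H against 28.7 and 36.9 in pNE_H. CNTN6, a contactin, was at 0 to 0.319 TPM at day 2 and rose from aNE in all 3 media (3.30, 1.51 and 2.20) and from pNE in forebrain medium (1.78). IGSF21 fell from pNE in all 3 media, to 0.123 and 0.318, 1.71 and 2.32, and 0.485 and 0.493 TPM from 6.88 and 7.46. THY1, a small surface glycoprotein of stem cells and neurons, fell from 119 and 138 TPM in pNE to 28.6 to 44.2 TPM in pNE-derived cells, and was at 65.2 to 128 TPM in the aNE-derived libraries. On the adhesion list of 111 tested genes, 14, 12 and 19 were called higher and 21, 18 and 17 lower in pNE-derived cells.

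The lower genes also held factors of pluripotent cells and an enzyme gene that fell in both origins. ZFP42 fell from 68.9 and 77.8 TPM in pNE to 0.879 and 0.907 in pNE_T, 18.9 and 20.4 in pNE_M and 2.20 and 2.63 in pNE_H. From 92.7 and 95.7 in aNE it fell to 4.72 and 5.13, 42.5 and 47.7, and 26.3 and 27.6 TPM. ZSCAN10, a zinc finger factor of pluripotent cells, fell from 79.0 and 113 TPM in pNE to 0.984 to 2.44 TPM in pNE-derived cells, and from 77.6 and 77.9 in aNE to 4.23 to 18.9 TPM. IFITM1 fell from pNE in all 3 media (-2.37, -1.41 and -2.21), and ASS1, the urea cycle enzyme argininosuccinate synthase, fell in both origins, from 252 to 357 TPM at day 2 to 4.22 to 38.7 TPM in pNE-derived and 23.8 to 73.7 TPM in aNE-derived cells. Of 16 pluripotency markers tested, 0 were called higher and 4, 1 and 2 lower in pNE-derived cells, with a summed TPM of 994 to 1077 in pNE_T and 1178 to 1180 in aNE_T, 1242 to 1254 in pNE_M and 1201 to 1350 in aNE_M, and 1194 to 1328 in pNE_H and 1542 to 1623 in aNE_H. Of the 16 markers, 9 in pNE_T and 10 in each other day-4 group reached 1 TPM in both libraries. NANOG was below 1 TPM in every differentiated group on average. In hPSC, ZFP42 was at 174 and 176 TPM, ZSCAN10 at 178 and 187, IFITM1 at 394 and 402 and ASS1 at 91.9 and 101. ASS1 was thus higher at day 2 than in hPSC, and the other genes were lower. Whether residual undifferentiated cells have a part in the falls of ZFP42, ZSCAN10, IFITM1 and ASS1 was not tested.

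**Figure D3:**
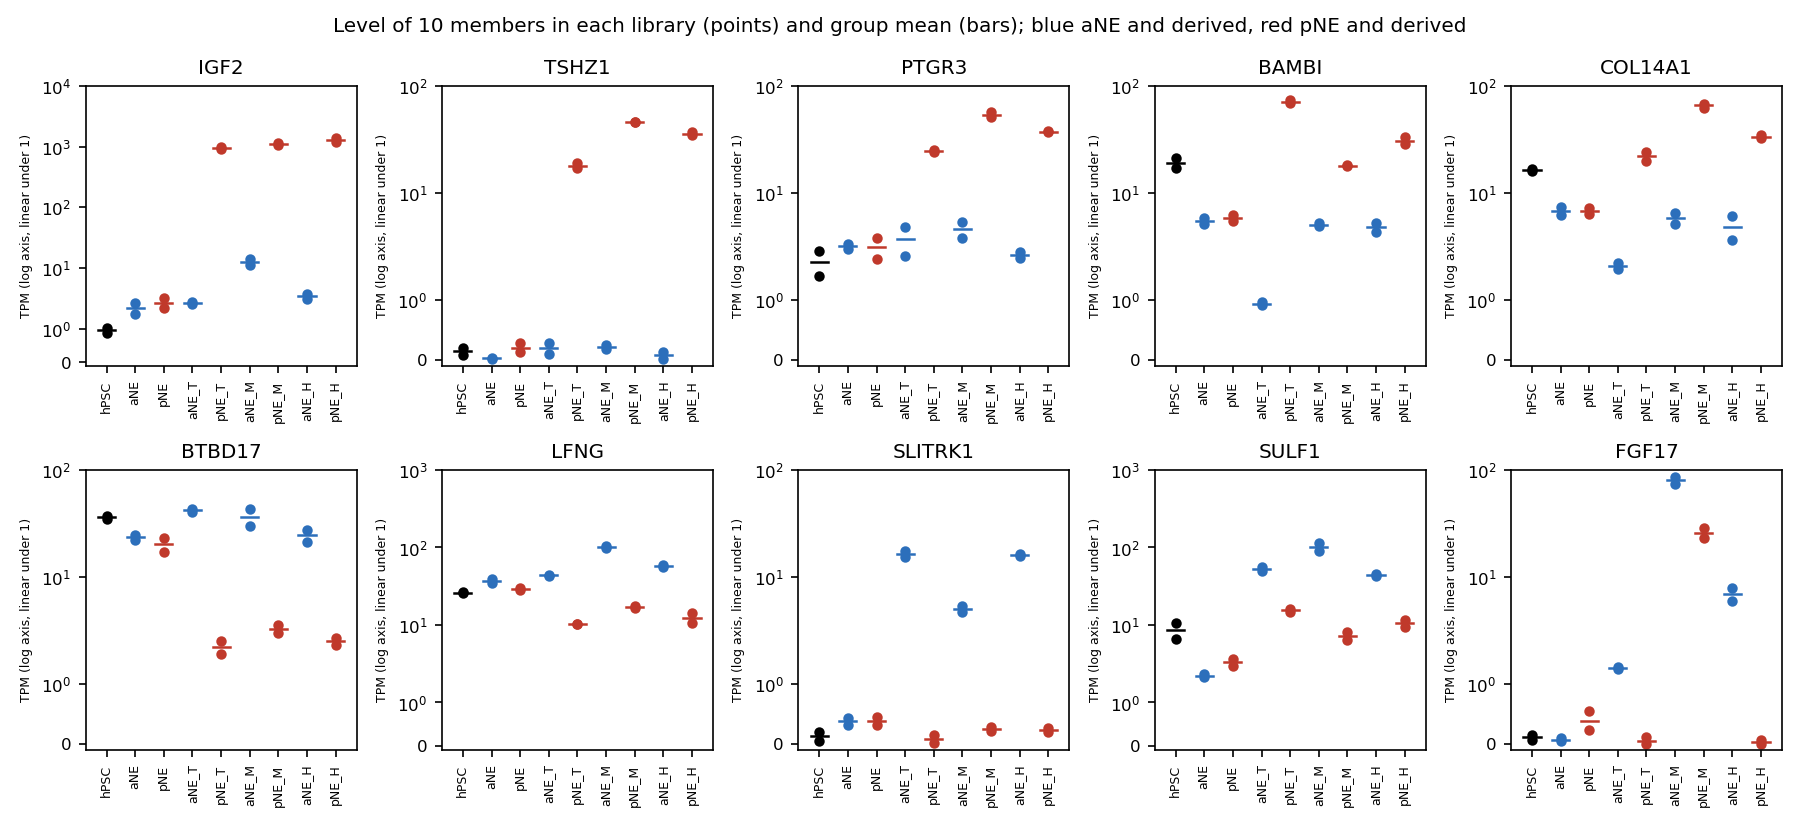
Points give the TPM of 10 of the 77 genes in each of the 18 libraries and bars the group means, on an axis that is logarithmic above 1 TPM and linear below it, with aNE and its derivatives in blue, pNE and its derivatives in red and hPSC in black. IGF2 and TSHZ1 are high in the 6 pNE-derived libraries alone, SLITRK1 is high in the 6 aNE-derived ones, and FGF17 is highest in aNE_M.

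In 4 of the higher genes the aNE-derived cells fell in all 3 media. CRB3, an apical polarity protein, fell from 7.70 and 12.2 TPM in aNE to 0.378 to 1.60 TPM in the aNE-derived libraries and was at 13.7 and 14.8 TPM in pNE_T, 2.06 and 2.36 in pNE_M (a called fall, -1.56) and 4.51 and 4.78 in pNE_H. PLAAT3, a phospholipase, and GOLT1A, a Golgi transport protein, were also among them, and these 2 were named after their values were seen. PLAAT3 fell from 18.3 and 23.0 TPM in aNE to 2.21 to 7.59 TPM, and GOLT1A fell from 3.73 and 4.62 to 0 to 1.67 TPM, where the call in forebrain medium (-1.15) was lost without aNE_T replicate 1 (-0.95).

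F2, the coagulation factor prothrombin made by the liver, was at 11 and 12.2 TPM in pNE_T, 3.10 and 3.42 in pNE_M and 8.05 and 9.60 in pNE_H, against 0.0421 to 0.463 TPM in all other libraries. Of 11 endoderm markers tested, 4, 4 and 6 were called higher in pNE-derived cells in forebrain, midbrain and hindbrain medium and 2, 1 and 1 lower. The summed TPM of all 13 was 107 to 109, 67.5 to 76.5 and 74.3 to 75.1 in pNE_T, pNE_M and pNE_H, and 23.4 to 30.6, 14.9 to 18.6 and 14.3 to 16.5 in aNE_T, aNE_M and aNE_H. AFP, the fetal albumin relative, gave 28.0, 1.25 and 14.6 TPM of the pNE-derived sums. SOX17 was listed at 0 in pNE_M and in aNE_T, aNE_M and aNE_H, and their part in the F2 difference was not tested. CD34, a surface marker of blood progenitors and endothelium, was at 6.27 and 8.25, 6.58 and 7, and 3.61 and 4.17 TPM in pNE_T, pNE_M and pNE_H, against 0.119 to 0.687 TPM in all other libraries. The 15 endothelial and blood markers summed to less in pNE-derived cells in each medium (53.5 to 55.2 against 72.2 to 74.4 TPM in forebrain, 22.9 to 24.3 against 27.8 to 34.7 in midbrain and 27.5 to 28.9 against 45.7 to 46.7 in hindbrain medium). Of 10 tested, 1, 0 and 2 were called higher in pNE-derived cells and 3, 2 and 2 lower. Markers at 1 TPM or more in both libraries numbered 6 in pNE_T against 8 in aNE_T. They numbered 2 in pNE_M against 4 in aNE_M, and 6 in pNE_H against 3 in aNE_H. The part of these markers in the CD34 difference was not tested.

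SLC18A3, the vesicular acetylcholine transporter, and CHRNA3, a nicotinic receptor subunit, are genes of cholinergic neurons. SLC18A3 was at 4.04 and 4.54 TPM in pNE_T, 12.7 and 13.8 in pNE_M and 3.19 and 4.83 in pNE_H, against 0 to 0.103 TPM in all other libraries. CHRNA3 was at 13.7 and 15.9 TPM in pNE_T, 13.3 and 13.8 in pNE_M and 51.7 and 55.1 in pNE_H, against 2.16 to 5.63 TPM in the aNE-derived libraries. The neuronal markers summed to 2200 to 2379 TPM in pNE_H and 375 to 394 TPM in aNE_H, of which NEFM, a neurofilament, gave 1886 and 51.8 TPM, whereas TUBB3 was called lower in pNE-derived cells in each medium (-1.92, -1.12 and -1.40). Of 21 tested neuronal markers, 5, 3 and 3 were called higher and 3, 4 and 3 lower. NEUROD4 and NEUROG1 were listed at 0 in aNE_T, pNE_T, aNE_H and pNE_H. Also at 0 were ELAVL4 and ISL1 in aNE_T and NEUROD1 and SLC17A6 in aNE_H. On the posterior side STMN2 was at 0 in pNE_T and pNE_H, and ISL1 and SLC17A6 in pNE_M. The part of the neuronal markers in these differences was not tested. CACNG7, an auxiliary subunit of AMPA receptors and calcium channels, was at 77.0 and 81.4 TPM in aNE_T against 8.63 and 9.89 in pNE_T, 33.3 and 40.3 in aNE_M against 10.8 and 13.0 in pNE_M, and 48.2 and 52.9 in aNE_H against 14.3 and 15 in pNE_H.

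Of the other higher genes with large differences, OXR1, an oxidation resistance protein, was at 8.52 to 14.2 TPM at day 2 and in the range 10.2 to 12.3 TPM in the aNE-derived libraries. It was at 111 and 117 TPM in pNE_T, 47.9 and 50.9 in pNE_M and 123 and 147 in pNE_H. METTL24, a methyltransferase-like protein, was at 6.15 to 8.20 TPM in the pNE-derived libraries and 0.163 to 1.23 TPM in the aNE-derived ones. SH3RF2, a ring finger and SH3 domain protein, was at 3.22 and 4.88, 16.8 and 17, and 8.96 and 9.88 TPM in pNE_T, pNE_M and pNE_H, against 0.222 to 1.45 TPM. MDGA1 was at 34.7 and 37.8 TPM in pNE_T, 5.77 and 5.91 in pNE_M and 19.5 and 21.8 in pNE_H, and GPR27, an orphan receptor, was at 7.97 to 16.8 TPM in the pNE-derived and 3.40 to 7.34 TPM in the aNE-derived libraries. A group of 14 higher genes were named after their values were seen: NNMT, OSBPL6, GYG1, BFSP2, ARHGEF28, ARID5B, CCDC198, PCBD1, NEURL1B, FAM131B, ACSM3, SNX18P3, PLAAT3 and GOLT1A. Among them NNMT, which methylates nicotinamide, was at 20.6 and 24.1 TPM in pNE_T. PCBD1, an enzyme that recycles the cofactor tetrahydrobiopterin, was at 172 to 264 TPM in the pNE-derived and 60.1 to 80.5 TPM in the aNE-derived libraries. NEURL1B was at 17.4 to 31.9 TPM in the pNE-derived and 6.48 to 10.6 TPM in the aNE-derived libraries. OSBPL6, an oxysterol-binding protein, was at 37.1 and 38.6 TPM in pNE_H against 6.17 and 6.55 in aNE_H. For ACSM3, a fatty acid CoA ligase, no change from day 2 was called in either origin in any medium.

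GAS6, the ligand of the TAM receptor kinases, was at 39.0 to 52.6 TPM at day 2 and fell from pNE in all 3 media (-3.01, -1.34 and -3.49), to 4.06 and 4.83, 15.5 and 17.3, and 2.02 and 4.06 TPM. In aNE_M it was at 80.1 and 83.4 TPM. TPBG, a surface protein that inhibits WNT signalling, rose from aNE in forebrain (1.98 ± 0.10) and midbrain medium (2.31 ± 0.10), to 186 and 191 and to 238 TPM in both libraries, and was at 23.9 to 48.4 TPM in the pNE-derived libraries. GSN rose from aNE in the same 2 media (1.74 and 2.27) and fell from pNE in hindbrain medium (-1.22), to 9.31 and 10.5 TPM. MARCHF4, a membrane-bound ubiquitin ligase, was at 0.161 to 1.89 TPM in the pNE-derived and 2.25 to 9.02 TPM in the aNE-derived libraries. RTN4RL1, a relative of the Nogo receptor, rose from aNE in all 3 media and reached 22.3 and 23.0 TPM in aNE_M, against 0.915 and 1.66 TPM in pNE_M. MN1, a transcriptional cofactor, was at 18 to 29.8 TPM at day 2, 53.2 and 55.3 in aNE_T and 57.6 and 66.3 in aNE_H, and at 8.17 to 15.1 TPM in the pNE-derived libraries. LRRC3B was at 0.313 to 0.797 TPM in the pNE-derived and 2.80 to 6.92 TPM in the aNE-derived libraries. HECW1 was at 23.0 and 25.1 TPM in aNE_T and 0.0265 to 4.34 TPM elsewhere at day 4. A group of 9 lower genes, DDIT4L, SFN, NELL2, NKAIN4, MYL11, ANK2, ANKRD50, LAYN and HECW1, were named after their values were seen. Of these, NELL2, a secreted neural glycoprotein, was highest in aNE_M at 132 and 164 TPM, against 55.4 and 55.6 in pNE_M. MYL11, a myosin light chain, was highest in aNE_T at 22.8 and 25.9 TPM, against 1.5 and 2.19 in pNE_T. NKAIN4, a partner of the sodium pump, was at 3.54 to 11.7 TPM in the pNE-derived and 10.6 to 50.4 TPM in the aNE-derived libraries, without overlap within a medium.

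The size of the origin difference was compared between media by a limma interaction. The rule used the 3 differences behind it, and the background was not chosen in that way, so the counts are a description. The difference in midbrain medium differed from that in forebrain medium for 26 of 77 genes, that in hindbrain medium from forebrain for 13, and hindbrain from midbrain for 20, beside 7.63%, 5.37% and 6.99% of all genes. The difference was more positive in midbrain than in forebrain medium for 13 genes (4.17% of all) and more negative for 13 (3.46%), in hindbrain than in forebrain medium for 9 (3.23%) and 4 (2.14%), and in hindbrain than in midbrain medium for 12 (3.69%) and 8 (3.30%). For 35 genes at least 1 of these interactions was called, and the share of all genes with such a call was not computed. BAMBI had a smaller excess in pNE-derived cells in midbrain (-3.57 ± 0.18) and hindbrain medium (-2.76 ± 0.18) than in forebrain medium. COL25A1 had its smallest excess in midbrain medium (-2.66 ± 0.46 against forebrain, and hindbrain above midbrain by 3.77 ± 0.46), though the call of the first of these was lost with a pseudocount of 0.1 (-1.98). CHRNA3 had its largest excess in hindbrain medium (1.51 ± 0.29 above forebrain and 2.60 ± 0.29 above midbrain). COL12A1 had its largest in midbrain medium, where hindbrain was lower by -2.31 ± 0.22. RTN4RL1 had a deeper deficit in midbrain than in forebrain medium (-2.05 ± 0.27), and FGF17 (-1.75 ± 0.25 against forebrain) and ZFP42 (-1.88 ± 0.14 against midbrain) had theirs in hindbrain medium.

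The median absolute difference of the 44 higher genes was 2.12, 1.79 and 2.15 in forebrain, midbrain and hindbrain medium, and that of the 33 lower genes was 1.93, 1.54 and 1.99. Within an origin, the media differed for 28 genes (midbrain against forebrain), 15 (hindbrain against forebrain) and 17 (hindbrain against midbrain) among aNE-derived cells, beside 10.1%, 6.60% and 4.92% of all genes. Of the 28, 13 were higher in aNE_M and 15 in aNE_T (3.50% and 6.55% of all genes). Among pNE-derived cells the counts were 31, 18 and 22, beside 8.60%, 5.03% and 5.99%. The count of 18 fell to 11 without pNE_T replicate 1 and to 6 when only the 4 compared libraries were fitted, and the count of 22 fell to 12 in such a fit. For 19 genes no medium difference was called in either origin, among them BTBD17, SMAD6, METTL24, CD34 and THY1. The share of all genes without such a call was not computed.

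**Figure D4:**
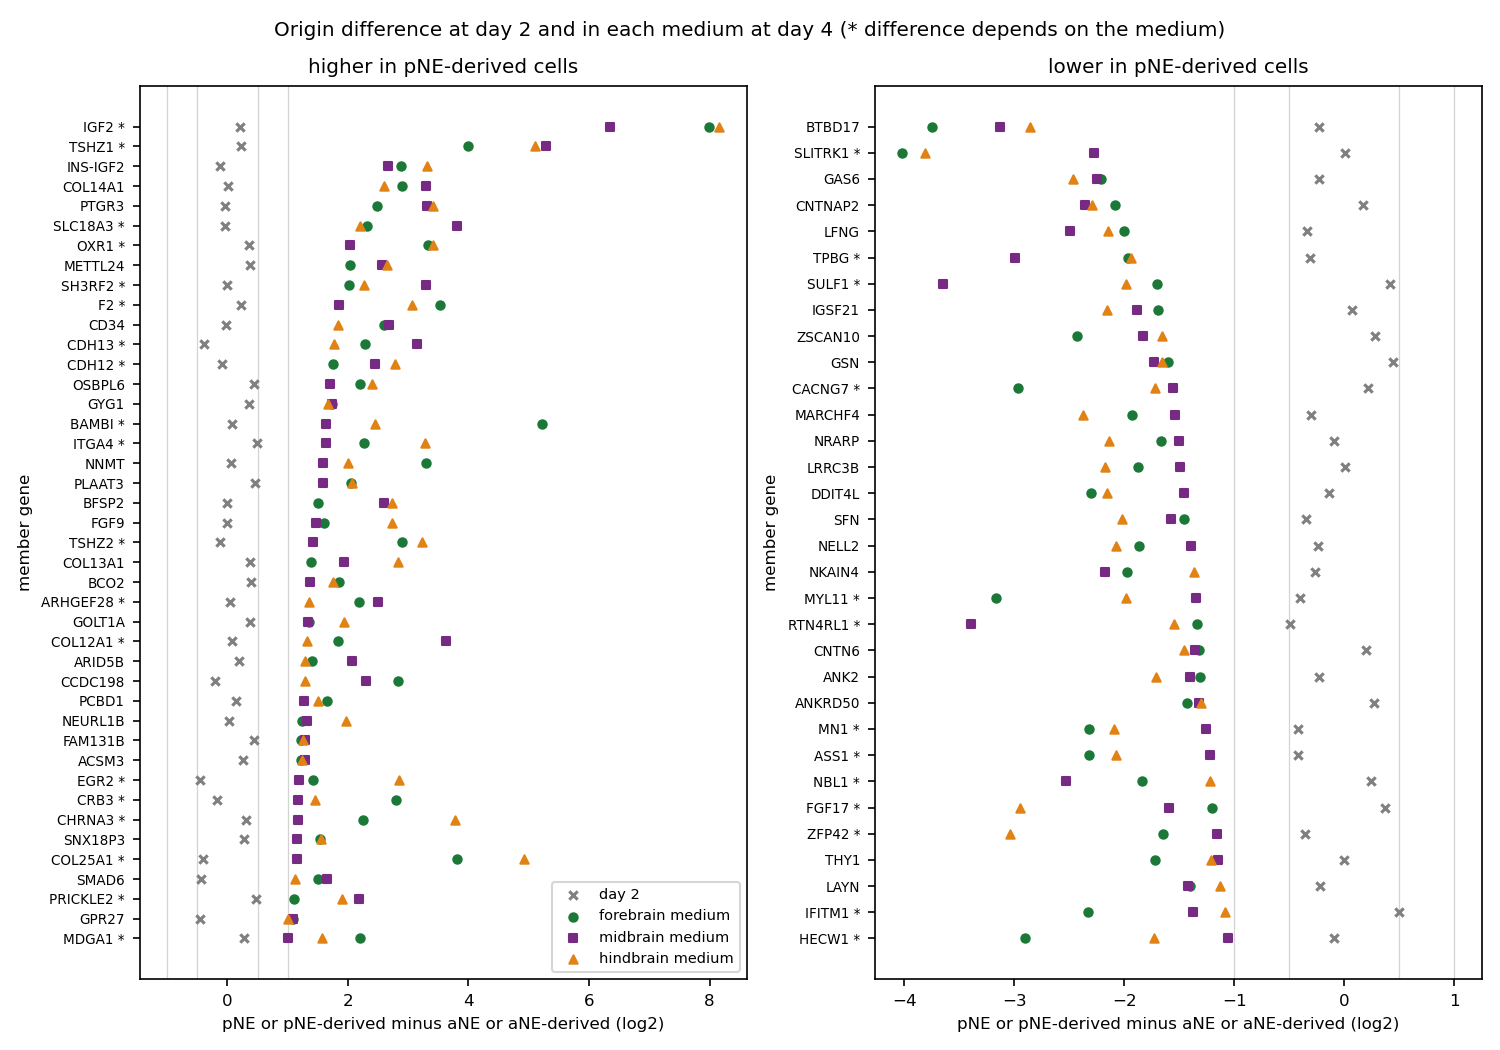
Each row is 1 of 74 of the 77 genes, in 2 panels by direction, and the x axis is the log2 difference pNE minus aNE at day 2 (grey crosses) and pNE-derived minus aNE-derived in forebrain (green circles), midbrain (purple squares) and hindbrain medium (orange triangles) at day 4. Lines mark 0.5 and 1, stars mark the 32 genes drawn with a called interaction, and the spread between media is wide for BAMBI and COL25A1.

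Between hPSC and day 2, before the origins parted by the rule, 25 of the 77 genes (32.5%) were called changed in aNE and 21 (27.3%) in pNE, beside 13.5% and 12.9% of all genes. In aNE 15 rose and 10 fell (7.36% and 6.19% of all genes), and in pNE 13 rose and 8 fell (7.14% and 5.74%). These comparisons share the hPSC libraries, and the rule kept only genes that reached 5 TPM in a group, which the background does not. MN1 rose by 3.07 ± 0.15 in aNE and 2.65 ± 0.15 in pNE, from 2.53 and 2.76 TPM. MDGA1 (2.48 and 2.75) and COL12A1 (2.30 and 2.38) rose in both as well, each from under 1 TPM, and PRICKLE2 rose by 1.86 and 2.34. IFITM1 fell by 2.60 and 2.11, from 394 and 402 TPM. Over both directions the median change of the 77 genes from hPSC was 0.12 in aNE and 0.17 in pNE (0.065 and 0.049 over all genes).

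From RefSeq, promoter windows of 300 bases (250 before and 50 after the start) were found for 53 of the 77 genes, 32 higher and 21 lower, and for 11824 tested genes. AGGTCA was found in 9.4% of the 53 windows (9.8% of all 11824), TGATNNAT in 3.8% (3.4%) and TAATCC in 3.8% (4.3%). GGAATG was found in 13.2% (11% of all) and CTTTGA in 11.3% (8.9%). CCAAT was found in 30.2% (36.4% of all), TATAAA in 9.4% (6.2%) and CACGTG in 3.8% (9.8%). TAATCC was found in 0 of 32 higher and 2 of 21 lower windows, and TGATNNAT in 2 and 0. By a measure added after the data were seen, a ratio of observed to expected CpG of at least 0.6 was found in 60.4% of the 53 windows (71.9% of the higher and 42.9% of the lower genes) and in 79.5% of all windows. These matches are letters in a window and not sites shown to be bound.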

How the data were processed

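Poly-A RNA of 18 H1 libraries (9 groups, 2 replicates each) was analysed from 1 table of TPM values that the authors deposited. The labels call the replicates biological and do not name separate passages or days, so p-values measure the spread between these libraries. Per the submitters' processing notes, bcl2fastq, FastQC, Trim Galore, kallisto and deepTools and the build hg38 were used, with versions and roles not given in the sources used here. TPM keeps no depth, so no counting interval could be given.

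From these values log2(TPM + 1) was computed. The 17033 genes that reached 1 TPM in 2 or more libraries entered limma 3.58.1 in R 4.3.3, with 1 mean per group over the 18 libraries, 9 residual degrees of freedom, a trended prior variance and Benjamini-Hochberg adjustment over all genes. A call needed a size of 1 or more in log2 and an adjusted p under 0.05. Interactions compared origin differences between media.

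The genes and lists were chosen with earlier results of these data known. Genes were named if on a gene list, among the 12 higher and 12 lower with the largest smallest origin difference, among the 4 largest called interactions per pair of media, among the 5 with the largest smallest change after day 2 per origin, among the 4 largest changes from hPSC per origin, or nearest to a limit of the rule. Others are marked as named after their values were seen. Alternatives were a pseudocount of 0.1, other filters on low values, median-ratio and quantile scaling, a fit on the compared groups alone, a replicate block, other limits of the rule, and leaving out each library. Promoters came from RefSeq (GRCh38.p14), as did the gene positions used for chromosomes, gene types and neighbours. The strands and printed coordinates of TSHZ1 and PTGR3 came from GENCODE 29. Some of the 77 genes are counted in every total and are not reported here by name or drawn.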

Additional observations from a re-analysis of the deposited data

Results flagged for a closer look

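A limma interaction of the day-4 origin difference with medium, built on differences that the rule used, was called (adjusted p under 0.05 and a size of at least 1) for 26 of the 77 genes between midbrain and forebrain, 13 between hindbrain and forebrain and 20 between hindbrain and midbrain medium. Among the genes with the largest called interactions were these, as the second medium's difference taken from the first's on the log2 scale. Between midbrain and forebrain they were BAMBI (-3.57), COL25A1 (-2.66) and RTN4RL1 (-2.05). Between hindbrain and forebrain they were BAMBI (-2.76), FGF17 (-1.75) and CHRNA3 (1.51). Between hindbrain and midbrain they were COL25A1 (3.77), CHRNA3 (2.60), COL12A1 (-2.31) and ZFP42 (-1.88). RTN4RL1, FGF17 and ZFP42 were lower in pNE-derived cells, so a negative value there is a larger gap. Groups of 2 libraries are too small for a test of single outlying libraries.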

How the results depend on the processing

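The rule found 77 genes, 116 with a pseudocount of 0.1 (57 shared), 41 with a day-2 limit of 0.25 and 33 with a day-4 limit of 1.5. Leaving out 1 library gave 69 to 84 genes. Of the 77, 42 were found with each of the 16 libraries left out in turn, and without pNE replicate 1 the 69 genes shared 60 with the 77. Without the size limit, calls from aNE numbered 43, 45 and 41 in forebrain, midbrain and hindbrain medium, against 28, 28 and 24, and calls from hPSC numbered 40 (aNE) and 38 (pNE), against 25 and 21. For media within the aNE origin they numbered 46 (midbrain against forebrain), 35 (hindbrain against forebrain) and 32 (hindbrain against midbrain), against 28, 15 and 17. Within the pNE origin they numbered 34 and 39 for hindbrain against forebrain and midbrain, against 18 and 22, and a fit on the compared groups alone gave 6 and 12. With 1 library left out, hindbrain against forebrain in the pNE origin gave 11 to 19 calls (11 without pNE_T replicate 1). Of 482 called values of the genes none reversed in any setting, and 395 stayed called with each library left out in turn. Leaving out a library leaves a group with 1 library, which is assumed to vary like the other groups. Replicate numbers did not pair the samples: over 36 pairs of groups, the correlation of same-numbered deviations was -0.09 to 0.076. With the replicate block, 25, 12 and 19 interactions were called, against 26, 13 and 20. Depth is unknown, and values under 1 TPM are the least certain.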

Other observations

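Of the 227 genes that differed by origin in all 3 media at day 4, 23 had differed by 0.5 or more in the opposite direction at day 2. ID1, a direct target of BMP signalling that holds back differentiation, was one of them and was named after its values were seen. Its mean was 133 TPM in aNE and 18.2 TPM in pNE at day 2. At day 4 it was 75.8 TPM in aNE_T against 192 in pNE_T, 51.8 in aNE_M against 165 in pNE_M, and 42.0 in aNE_H against 321 in pNE_H. The origin difference went from -2.83 ± 0.18 at day 2 to 1.33, 1.66 and 2.91 (each ± 0.18) in forebrain, midbrain and hindbrain medium, all called by limma (largest adjusted p = 0.000134).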
